A study of Mus musculus with 483 samples.

Results

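The insulin-like growth factor (IGF) genes described here are 5 binding proteins (Igfbp2, Igfbp3, Igfbp4, Igfbp5 and Igfbp7), the ligand Igf1 and 3 receptors (Igf1r, Igf2r and Insr). They are 9 of the 46078 genes in the count table and were listed by name. The list was drawn up with earlier results of these cells in view, namely the cluster that carried each gene, the relation of Igfbp3 to Dll4, and the difference between treated and control cells. Those 3 patterns are therefore given as descriptions and support nothing by themselves. Reads in 5% or more of the 483 cells made a gene measured; 9 of the 9 genes and 15204 in all met this.

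IGF1 and IGF2 are secreted growth factors that signal through the receptor tyrosine kinase IGF1R and through the insulin receptor, and so drive the PI3 kinase and AKT cascade. Secreted binding proteins hold the ligands, extend their life in circulation and control how much reaches the receptors, and proteases release the ligands from them. IGF2R, also the mannose 6-phosphate receptor, takes up IGF2 and delivers it to lysosomes without relaying a growth signal. In the embryo these growth factors act mainly within the tissue that makes them, and Igf2 is the ligand that dominates before birth.

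The data are single-cell RNA sequencing of 483 mouse cells from the aorta, gonads and mesonephros, sorted as positive for CD31 (endothelial) and Kit (the receptor of stem cell factor) and negative for CD45 (blood). They were either Ctrl or aDll4-treated, a term the labels leave unexplained. Over 6 runs of library numbers there were 46, 46, 44, 40, 37 and 26 Ctrl and 46, 46, 39, 47, 30 and 36 treated cells. No genotype, strain, embryo age, embryo or culture is given, so each treatment counted as 1 sample, cells were not used as replicates, and no test was run. The labels place each cell in 1 of 7 clusters named ICGS.

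The labels call the cells hematopoietic stem cells, but the markers were mostly endothelial. Clusters 1, 2 and 3 comprised 97, 73 and 31 cells from Ctrl, and 86, 72 and 36 that were treated. They had 8 of 8 endothelial markers at 10 CPM or more (counts scaled to a total of 1000000 reads), with summed levels of 6866, 6200 and 4835 CPM, against 81.8 to 528 CPM in clusters 4 to 7. These are called the endothelial cells below. Mesenchymal markers summed to 13531 CPM in cluster 5 (13 cells), where epithelial markers summed to 717 CPM. Cluster 4 (22 cells) was mixed, with 1049 CPM of mesenchymal, 201.8 CPM of epithelial and 158.6 CPM of hematopoietic markers, and is called by its number. Hematopoietic markers summed to 1302 CPM in cluster 6 (33 cells) and 8967 CPM in cluster 7 (20 cells), while Ptprc, which encodes CD45, stood below 1 CPM in all 7 clusters. Reads per cell ranged from 123097 to 2870618, with medians of 900286 in Ctrl and 869802 in treated cells.

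The library numbers in the labels fell into 2 blocks and were split further into the 6 runs, of 96 consecutive numbers each. Runs 1 to 4 lay in block 1 and runs 5 and 6 in block 2, which held 63 Ctrl and 66 treated cells. The sexes of the cells were spread unevenly over blocks and treatments. In block 1, 48.3% of Ctrl cells had reads of Xist and 43.75% of Y-linked genes, against 0% and 89.3% of treated cells. In block 2 the shares were 39.7% and 46.03% of Ctrl cells against 92.4% and 0% of treated cells. Treatment and embryo can therefore not be told apart within a block.

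Igfbp3 is the gene on which most of the following results turn, and its level is set beside that of Dll4, the Notch ligand of arterial endothelium. Both lie on mm10: Igfbp3 (ENSMUSG00000020427) at chr11:7206086-7213923 on the minus strand, Dll4 (ENSMUSG00000027314) at chr2:119325784-119335962 on the plus strand. Their promoter windows, from 250 bases before to 50 bases after the start site, are shown because the pair varied together from cell to cell. They come from RefSeq on GRCm38.p6, the assembly behind mm10, at chr11:7213874-7214173 on the minus strand and at chr2:119325534-119325833 on the plus strand. Capitals mark the letters TATATA.
Igfbp3: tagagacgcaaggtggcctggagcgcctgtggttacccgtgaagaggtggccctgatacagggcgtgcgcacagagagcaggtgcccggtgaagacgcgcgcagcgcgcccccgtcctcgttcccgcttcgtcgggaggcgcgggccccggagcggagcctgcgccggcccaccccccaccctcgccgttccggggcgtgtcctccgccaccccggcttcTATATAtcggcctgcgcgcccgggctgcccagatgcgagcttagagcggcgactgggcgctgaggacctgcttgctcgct
Dll4: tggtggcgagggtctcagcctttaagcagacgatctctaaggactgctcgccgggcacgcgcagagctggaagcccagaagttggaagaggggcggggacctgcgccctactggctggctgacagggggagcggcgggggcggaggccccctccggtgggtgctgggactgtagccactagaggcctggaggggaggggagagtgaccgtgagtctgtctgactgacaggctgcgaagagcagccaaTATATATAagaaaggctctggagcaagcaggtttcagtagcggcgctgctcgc
In the Igfbp3 window TATATA began 30 bases before the start site. In the Dll4 window it occurred as a pair of overlapping copies that began 3 bases and 1 base before the start site and ran across it. The matches in the 2 windows are therefore not in like positions. These letters were present in 5.67% of the 32851 promoter windows of the genome on either strand, and they were searched for after the sequences had been seen. TGGGAA, the core of the sites bound by the Notch effector RBPJ, was found on either strand in 25.56% of windows. It was in neither of the printed windows, and among the IGF genes it was in those of Igf1 and Igf1r. TATAAA, held by 13.62% of windows on either strand, was in that of Igfbp4, 28 bases before the start. Windows were at hand for 8 of the 9 genes. A match is a run of letters, not a binding site.

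Among the binding proteins, Igfbp3 and Igfbp4 were abundant in endothelial cells and the other 3 were not. Per kilobase of exon, the endothelial level over both treatments was 384 CPM for Igfbp3 and 270.2 CPM for Igfbp4, against 50.4 for Igfbp2, 24.9 for Igfbp7 and 0.917 for Igfbp5. The ligand Igf1 stood at 12.04 CPM per kilobase, and the receptors at 15.7 for Igf2r, 4.97 for Insr and 2.09 for Igf1r. On the same scale Igf2, the second ligand, reached 204.7 CPM and Dll4 87.1 CPM. The 2 leading binding proteins were thus above both ligands and all 3 receptors in level per length.

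Of the 9 genes, 5 had their highest summed level in an endothelial cluster (Igfbp3, Igfbp4, Igfbp7, Igf1 and Insr), as did 28.9% of all measured genes. Another 3 were highest in clusters 4 or 5 (Igfbp2, Igfbp5 and Igf2r), as were 36.7% of measured genes. Among Ctrl cells alone 6 were highest in an endothelial cluster, because Igfbp2 was then highest in cluster 3. Igf1r was highest in cluster 7, and 34.4% of measured genes were highest in clusters 6 or 7. Igf2r alone stood more than 2-fold above its next cluster, which held for 9.75% of measured genes. Clusters were built by the submitters on these same cells, so these levels describe the clusters and are no test of them.

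**Figure D1:**
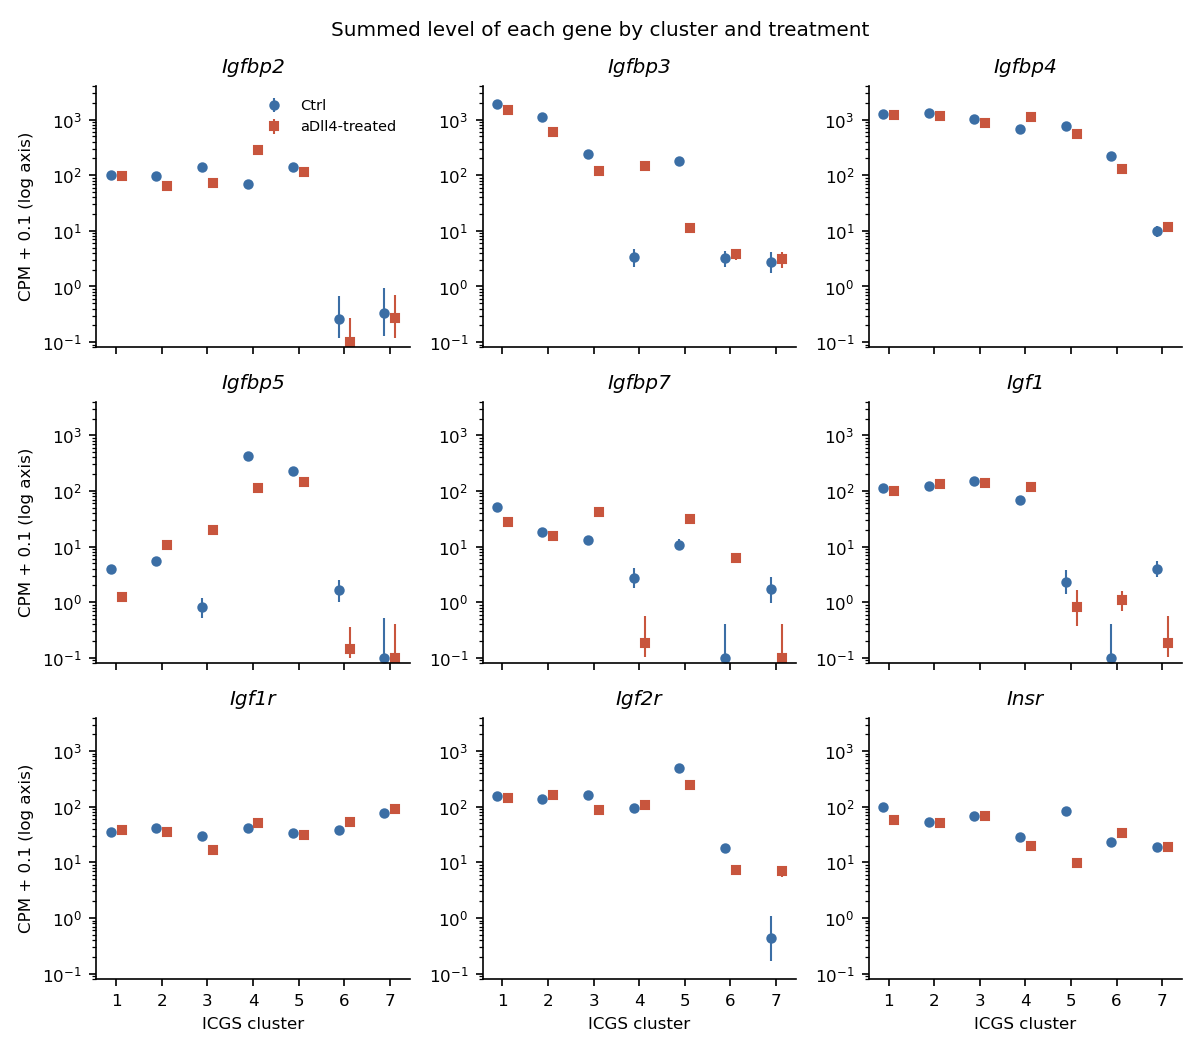
Level of each of the 9 genes in the 7 ICGS clusters, as CPM of summed counts with 0.1 CPM added on a log axis, with circles for Ctrl, squares for aDll4-treated cells and bars for exact Poisson 95% intervals of counting error. Igfbp3 steps down from cluster 1 to cluster 3, Igf1r is spread over all 7 clusters, and Igfbp5 is highest in clusters 4 and 5.

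Igfbp3, the main carrier of IGFs in serum, followed the order of clusters 1, 2 and 3. In cluster 1 Ctrl cells stood at 1936 and treated cells at 1477 CPM, in cluster 2 at 1131 and 602 CPM, and in cluster 3 at 241.5 and 116.7 CPM. Cluster 1 was above cluster 2 in 12 of the 12 sets formed by run and treatment, and above cluster 3 in 12 of 12, whereas cluster 2 was above cluster 3 in 10 of 12. Single cells spread widely within each cluster: Ctrl cells of cluster 1 ranged from 1.94 to 22341 CPM with a median of 1377 CPM. The median was 457 CPM in Ctrl cells of cluster 2.

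Outside the endothelium Igfbp3 was uneven. In cluster 4 the Ctrl cells had 3.22 CPM and the treated cells 147.4 CPM, but a single cell gave 81% of the treated reads. In cluster 5 the levels were 178.4 and 11.04 CPM. The hematopoietic clusters 6 and 7 lay between 2.65 and 3.70 CPM, yet most of their cells had a read of Igfbp3. All 13 Ctrl and all 22 treated cells of clusters 6 and 7 in block 1 had one, at 4.04 and 4.65 CPM. Of the 9 and 9 such cells in block 2, 6 and 7 had one, at 1.42 and 1.27 CPM. The share of cells with an Igfbp3 read, 98.01% of Ctrl and 97.4% of treated endothelial cells, therefore does not separate endothelial from hematopoietic cells, and levels are used instead.

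Igfbp4, at chr11:99041244-99054392, is the binding protein that the protease PAPP-A cleaves. It was level across the endothelium, at 1237 CPM in cluster 1, 1229 CPM in cluster 2 and 951 CPM in cluster 3 over both treatments. Clusters 1 and 2 did not differ beyond the spread between runs, with cluster 1 higher in 7 of 12 sets, while cluster 2 exceeded cluster 3 in 11 of 12. Igfbp4 was also high in clusters 4 and 5 (914 and 659 CPM). It fell away in the hematopoietic cells, to 162.2 CPM in cluster 6, where a single cell gave 66.5% of the Ctrl reads, and to 10.8 CPM in cluster 7. A read was present in 100% of Ctrl and treated endothelial cells.

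Igfbp2 and Igfbp5 lie beside each other and tail to tail on chromosome 1, at chr1:72824503-72852474 on the plus strand and chr1:72857932-72874884 on the minus strand. Igfbp2, a binding protein that prefers IGF2, stood at 97.6, 80.9 and 107.97 CPM in clusters 1, 2 and 3, an order that the runs did not keep (cluster 1 above cluster 2 in 7 of 12 sets, above cluster 3 in 5 of 12). It was at 194.5 CPM in cluster 4 and 125.1 CPM in cluster 5. The cluster 4 level differed between treatments, at 69.1 CPM over 10 Ctrl cells and 287.1 CPM over 12 treated cells, and in Ctrl it was below those of clusters 1, 2, 3 and 5 (99.96, 96.9, 139.4 and 138.3 CPM). In the hematopoietic clusters only 6 reads of it were seen, 2 in cluster 6 and 4 in cluster 7. Igfbp2 was thus carried by clusters 1 to 5 and was almost without reads in the hematopoietic clusters.

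Igfbp5, which binds extracellular matrix, was a gene of a few cells. It had reads in 76 of the 483 cells. Its level was 240.2 CPM in cluster 4 and 183.07 CPM in cluster 5, against 2.58, 7.92 and 9.72 CPM in clusters 1, 2 and 3. A single cell gave 96.4% of the Ctrl reads in cluster 4 and another 76.4% of those in cluster 5. Across Ctrl endothelial cells its Spearman rank correlation with its neighbour Igfbp2 was 0.025.

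Igfbp7, at chr5:77349240-77408041 on the minus strand, binds IGFs only weakly and is a secreted protein of vessel walls. It was highest in cluster 1 (40.6 CPM), then in cluster 3 (26.2 CPM), cluster 5 (21.5 CPM) and cluster 2 (16.9 CPM). After thinning of every cell to 300000 reads, 37.6% of Ctrl cells in cluster 1 had a read, against 21.2% in cluster 2, 7.41% in cluster 3 and 0 of 12 Ctrl cells in cluster 6. Before thinning the Ctrl shares were 40.2%, 26.03% and 9.68% in clusters 1, 2 and 3, and 0 of 14 in cluster 6. In treated cells the thinned shares were 31.3%, 22.1% and 14.8% in clusters 1, 2 and 3, and 4 of 19 in cluster 6. Before thinning 6 of 19 treated cells in cluster 6 had a read, and a single cell gave 88.5% of those reads. The level in cluster 3 rested on few cells, since a single cell gave 60.97% of the Ctrl and 56.5% of the treated reads. Of its exons, 85 bases overlap those of Polr2b on the other strand, and the reads do not mark strand.

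Igf1, at chr10:87858265-87937042, was a transcript of endothelium and of cluster 4. It stood at 106.2, 126.6 and 146.4 CPM in clusters 1, 2 and 3 and at 97.1 CPM in cluster 4. It was at 1.43 CPM in cluster 5, 0.624 CPM in cluster 6 and 1.71 CPM in cluster 7. The order within the endothelium did not hold between runs, with cluster 2 above cluster 3 in 3 of 12 sets and cluster 1 above cluster 2 in 4 of 12. The 22 cells of cluster 4 were uneven, with a single cell giving 46.1% of Ctrl and 55.8% of treated reads. Clusters 4 and 5 thus differed in their Igf1 level.

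The 3 receptors were distributed differently. Igf1r, at chr7:67952827-68233668, was found in all 7 clusters, from 23.3 CPM in cluster 3 to 84.3 CPM in cluster 7. Its level in cluster 7 was 76.3 CPM over 8 Ctrl cells and 90.2 CPM over 12 treated cells. In the endothelium, cluster 1 was above cluster 2 in 7 of 12 sets, and both lay above cluster 3 in most (10 and 11 of 12). Cells of cluster 3 also had fewer genes per cell, with a median of 5937 against 7549 over all cells, and its part in this was not tested.

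Igf2r, at chr17:12682406-12769664 on the minus strand, stood at 360.2 CPM in cluster 5, with Ctrl cells at 488 and treated cells at 249.6 CPM. In clusters 1 to 4 it ranged from 103.07 to 150.1 CPM, and clusters 1 and 2 did not differ (cluster 1 higher in 6 of 12 sets). It was low in the hematopoietic clusters, at 11.1 and 4.05 CPM, where Igf1r was at its highest. Insr, at chr8:3122061-3279617 on the minus strand, had its highest level in cluster 1 (79.7 CPM), followed by cluster 3 (67.8 CPM) and cluster 2 (52.5 CPM). Cluster 1 exceeded cluster 2 in 9 of 12 sets and cluster 3 in 6 of 12. Reads of all 3 receptors were found together in 59.2% of endothelial Ctrl cells and 59.8% of treated ones, or 54.3% and 53.4% after thinning.

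Individual endothelial cells with more Dll4 had more Igfbp3. The Spearman correlation over Ctrl cells was 0.69, the highest of 15201 genes ranked against Dll4, with the next gene at 0.58 and the median gene at 0.00. Among measured genes, 1.16% had a correlation of 0.3 or more, and among the 9 IGF genes only Igfbp3 did. Because the relation was among the reasons for listing Igfbp3, its rank is a description. The cells were sorted by the same markers and share the scaling to total reads, and no p-value is given.

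**Figure D2:**
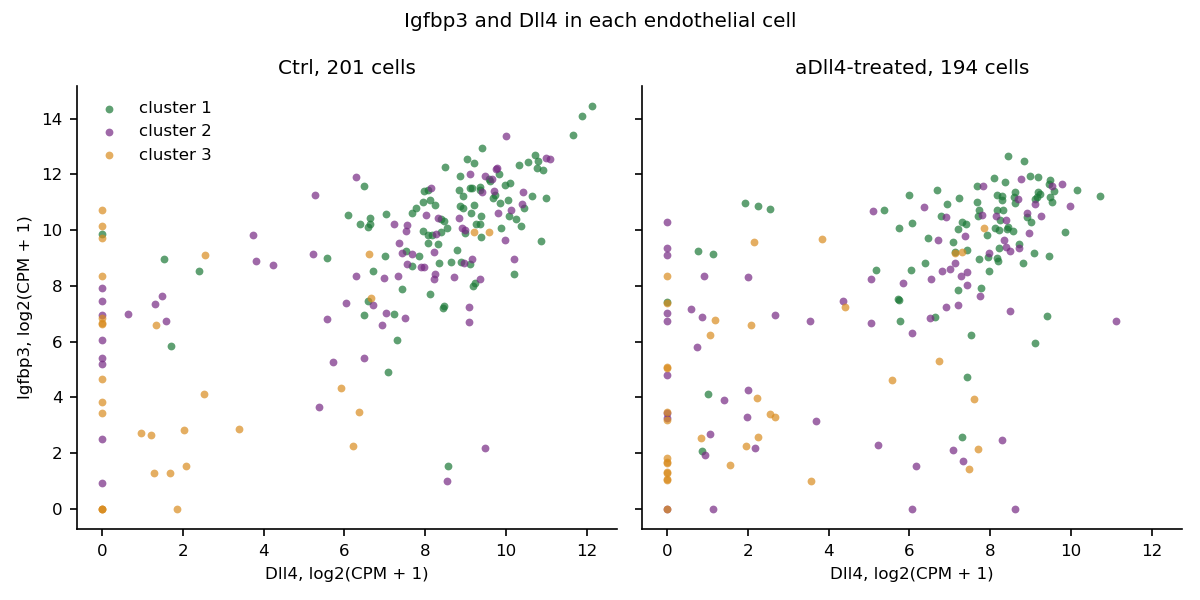
Igfbp3 against Dll4 in each endothelial cell, both as log2(CPM + 1), in Ctrl cells (left) and aDll4-treated cells (right) of clusters 1 to 3, coloured by ICGS cluster. Cells rich in Dll4 are rich in Igfbp3 in both panels, and most cells of cluster 3 lie at the lower left.

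Ctrl cells grouped by their Dll4 level show the size of the relation, with limits between groups set after the values were seen. Median Igfbp3 was 81.2 CPM in the 22 cells without a Dll4 read and 96.2 CPM in the 21 cells with Dll4 reads below 30 CPM. It was 330.1 CPM in the 43 cells from 30 to 200 CPM of Dll4, 1194 CPM in the 87 cells from 200 to 1000 CPM, and 2886 CPM in the 28 cells above. The ranges overlapped throughout: cells without a Dll4 read reached 1693 CPM of Igfbp3, and a cell from 200 to 1000 CPM of Dll4 had as little as 0.988 CPM. Presence alone told less, since 88.6% of the cells had reads of both genes and 9.45% had reads of Igfbp3 only.

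The correlation was 0.57 in cluster 1 (97 cells), 0.63 in cluster 2 (73 cells) and 0.094 in the 31 cells of cluster 3. Over clusters 1 to 3 it was 0.72 in block 1 and 0.51 in block 2 (47 cells), and from 0.45 to 0.84 in the 6 runs. Within cluster 1 it was 0.55 in block 1 (81 cells) and 0.64 in block 2 (16 cells). Cluster 2 had 0.77 in block 1 (60 cells) but 0.11 in block 2 (13 cells). Cluster 3 had 0.29 in block 1 (13 cells) and 0.034 in block 2 (18 cells). In block 1 Igfbp3 ranked 1 among 15198 genes, and in block 2 it ranked 45 among 15014. In cells with Xist reads the correlation over clusters 1 to 3 was 0.69 and in cells with Y-linked reads 0.64, with 92 cells each. Neither gene followed the number of genes detected per cell (0.043 for Igfbp3 and 0.031 for Dll4), and after thinning the correlation was 0.68. Dll4 shares exon bases with Gm14207 on the other strand, and reads from these cannot be told apart without strand.

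Treated cells, which the listing of the relation did not use, showed it too. Over their endothelial cells the correlation was 0.63, again the highest of the genes ranked (15200). Among measured genes, 1.61% reached 0.3 there, and among the 9 IGF genes only Igfbp3. It was 0.66 in block 1 and 0.56 in block 2 (48 cells). The slope of Igfbp3 on Dll4, both as log2(CPM + 1), was 0.59 in Ctrl and 0.62 in treated cells.

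Correlations of the other 8 genes with Dll4 in Ctrl endothelial cells were weak. Igfbp7 came to 0.27 and ranked 268 among the 15201 genes, and Insr came to 0.24 and ranked 427. The remaining 6 lay between -0.087 for Igf1 and 0.17 for Igfbp4. Block 2 differed from block 1 for some of them: Igf1r had -0.044 in block 1 and 0.44 in block 2, and Igf1 -0.24 and 0.32. With 47 cells in block 2, such values describe those cells.

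**Figure D3:**
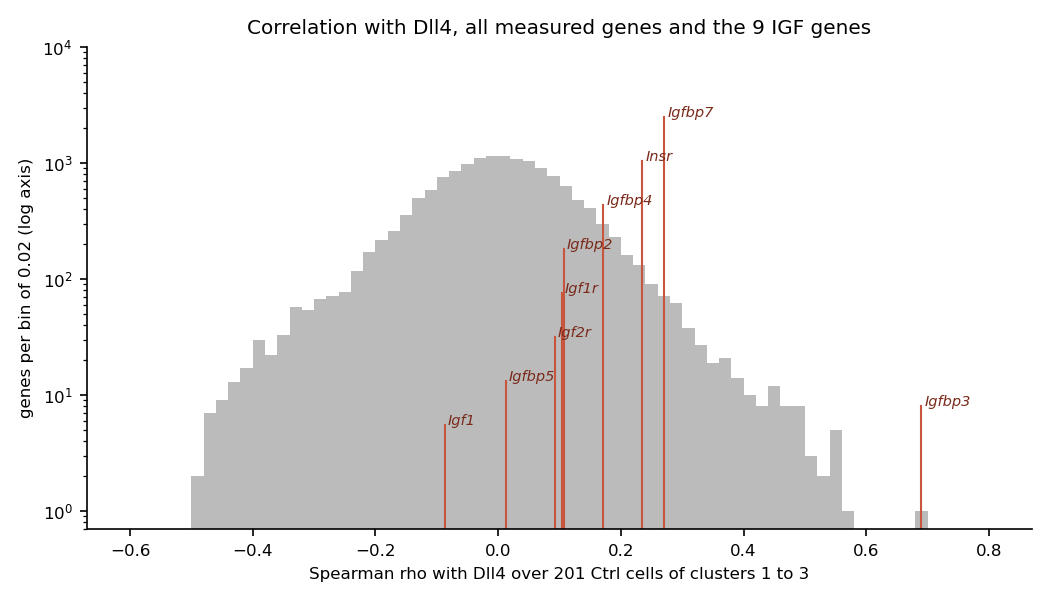
Number of measured genes by Spearman correlation with Dll4 over Ctrl cells of clusters 1 to 3, in bins of 0.02 on a log axis, with the 9 IGF genes marked by lines whose heights only separate the names. Igfbp3 lies alone at 0.69, beyond the next gene at 0.58, and the other 8 lie between -0.087 and 0.27.

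Correlations among the 9 genes were mostly weak. Of 36 pairs among them, 35 had a correlation between -0.3 and 0.3 in Ctrl endothelial cells, with a median of 0.057 and a lowest value of -0.11. The exception was Igfbp3 with Igfbp7, at 0.33, and this pair had 0.35 in block 1, 0.16 in block 2 and 0.11 in treated cells. The share over all pairs of measured genes was not counted, and with Dll4 only 1.16% of measured genes reached 0.3. In sparse counts such weak correlations are no finding.

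The 10 genes most like Igfbp3 across the Ctrl endothelial cells, by Spearman correlation and among genes with a full symbol, began with Dll4. They went on with Gja1 (connexin 43), at 0.61, Rell1, at 0.60, Sparc, a matrix-associated secreted protein, at 0.59, and Slc2a1, the glucose transporter GLUT1, at 0.57. Nid2 (nidogen, of basement membrane) had 0.55, Flt1 (a VEGF receptor) 0.54, Pecam1 (CD31 itself) 0.53, Cxcr4 (a chemokine receptor) 0.52 and Mcam (a cell adhesion molecule) 0.52. In treated cells 9 of these 10 lay between 0.49 and 0.63 and Cxcr4, which 26.9% of the Ctrl cells had a read of, at 0.27. In block 2 alone the 10 ranged from 0.32 to 0.60.

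The genes most like the other members were less alike. For Igfbp4 they were Idh2 (0.42), Serpinh1 (0.38) and Coro1b (0.38), and for Igfbp7 Agrn (0.41), Cdkn1a (0.41) and Foxf2 (0.40). Fat4 (0.41), Baz2b (0.39) and Npr3 (0.38) led for Insr, but Fat4 had 0.10 and Npr3 0.021 in treated cells. Igf2r was led by Glg1 (0.37), Igf1r by Dock9 (0.38) and Igf1 by Cd24a (0.32). For Igfbp2 the leading gene was Igf2 (0.32), with 0.38 in block 1, 0.14 in block 2 and 0.22 in treated cells. Igfbp5 was led by Entpd6 (0.32), with 0.10 in treated cells.

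Between treatments, the largest difference among the 9 genes that pointed the same way in both blocks was that of Igfbp3. Ctrl cells stood at 1188 CPM over all clusters, with an exact Poisson 95% interval from 1183 to 1192. Treated cells stood at 736 CPM (732 to 739), which gives a log2 ratio of -0.69 after 1 CPM is added on both sides. By block the levels were 1370 and 894 CPM in block 1 and 775 and 423 CPM in block 2, with log2 ratios of -0.62 and -0.87. Intervals cover counting error only, and amplified reads without molecular identifiers are not independent molecules.

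The spread between runs was wide. In Ctrl the Igfbp3 level was 1613, 964, 1032, 2059, 833 and 632 CPM in runs 1 to 6, and in treated cells it was 815, 989.6, 881, 873, 523 and 317 CPM. Treated cells were lower in 5 of the 6 runs and level in run 2 (log2 ratio 0.04), and the runs of the 2 treatments overlapped. Of the 9 genes, Igfbp3 alone was lower by 0.5 or more on the log2 scale in both blocks, as were 2.36% of measured genes. That call ended within the endothelial cells, where Igfbp3 had -0.48 in block 1 and -0.79 in block 2. There Igfbp5 was the 1 gene past 0.5 in both blocks, and it was higher (0.63 and 2.05).

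**Figure D4:**
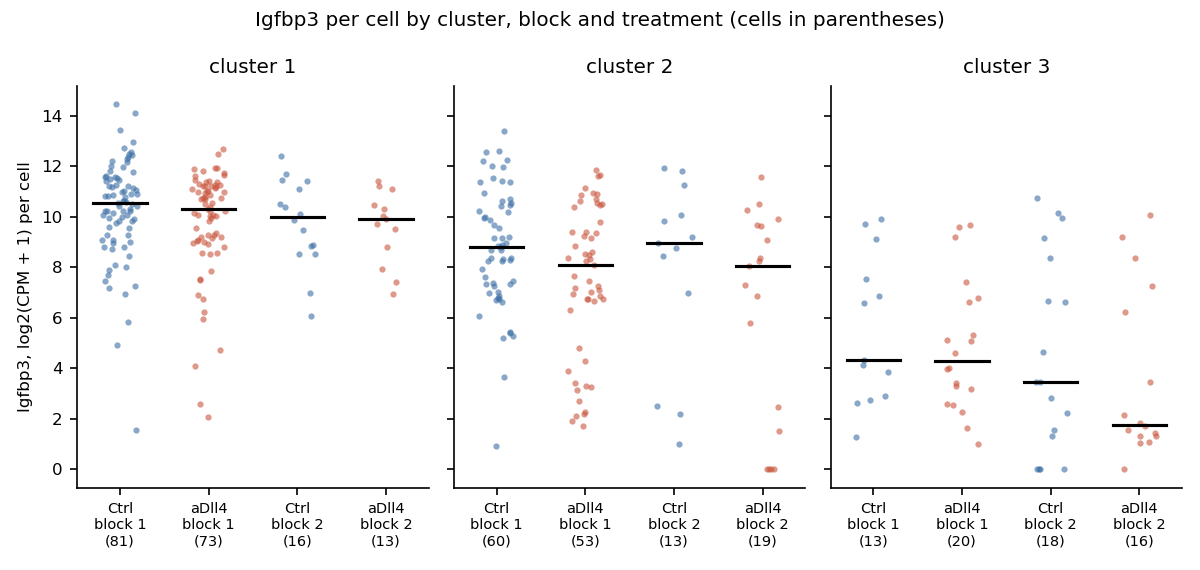
Igfbp3 in each endothelial cell as log2(CPM + 1), by ICGS cluster, block of library numbers and treatment, with bars at the medians and the number of cells in parentheses. Medians of treated cells lie below those of Ctrl in every pair except cluster 3 of block 1, where they are level, and the cells overlap throughout.

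The lower Igfbp3 level was seen within each endothelial cluster. The log2 ratio of summed levels was -0.39 in cluster 1, -0.91 in cluster 2 and -1.04 in cluster 3. It was below 0 in each block of each cluster. Block values were -0.39 to -0.41 in cluster 1, -0.70 to -1.42 in cluster 2 and -0.54 to -1.88 in cluster 3. These are ratios of sums, and per-cell medians were nearly level in cluster 3 of block 1 and cluster 1 of block 2. In cluster 3 a single cell gave 27.4% of the Ctrl and another 42.8% of the treated reads. Over the endothelial cells alone the log2 ratio was -0.56, and -0.54 over all cells when clusters were given equal shares in both treatments. Clusters 6 and 7, which carry little Igfbp3, held 22 Ctrl and 31 treated cells, and the summed level of hematopoietic markers was 390 CPM for Ctrl and 712 CPM for treated. Mesenchymal markers summed to 525 and 641 CPM, and endothelial markers to 5516 and 4699.8 CPM.

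Cells of like sex gave the same direction. Among cells with Y-linked reads in block 1 the Igfbp3 log2 ratio was -0.92, and among cells with Xist reads in block 2 it was -1.41. Within Ctrl, cells with Xist reads differed from cells with Y-linked reads by -0.47 in block 1 and by 1.06 in block 2, so that in block 2 the difference within Ctrl exceeded the size of the treatment ratio (-0.87). Cells differing in sex come from different embryos.

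Dll4 was lower in treated cells as well, with 356 CPM for Ctrl against 177.2 CPM, log2 ratios of -1.15 in block 1 and -0.46 in block 2, and lower values in 6 of 6 runs. On the line fitted to Ctrl endothelial cells, the Dll4 levels of treated cells corresponded to a mean Igfbp3 of 8.10 as log2(CPM + 1), and the mean observed was 7.77, with an SD over cells of 3.41. In block 1 these means were 8.40 and 8.25, and in block 2 they were 7.14 and 6.29. At equal Dll4 the cells of the 2 treatments overlapped: from 200 to 1000 CPM of Dll4, median Igfbp3 was 1194 CPM over 87 Ctrl cells and 1439.8 CPM over 73 treated cells. From 30 to 200 CPM the medians were 330.1 CPM over 43 Ctrl cells and 362 CPM over 56 treated cells. Treated cells had the higher median in these 2 groups and the lower one in the other 3. Below 30 CPM the medians were 96.2 CPM over 21 Ctrl cells and 55.1 CPM over 37 treated cells. From 1000 CPM upward, which 28 Ctrl but only 4 treated cells reached, they were 2886 and 2141 CPM. Without a Dll4 read, medians were 81.2 CPM over 22 Ctrl cells and 9.94 CPM over 24 treated cells.

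Of the 9 genes, 8 had a lower summed level in treated cells, as did 47.8% of measured genes, with a median log2 ratio of -0.23 against 0.01 for all measured genes. Over the same cells the endothelial markers were also lower when treated, at the summed levels given above. Within the endothelial cells alone 8 were lower and the median was -0.15, against 0.00 for all measured genes. The part of the marker levels in the median over all cells was not tested. The count did not carry over to both blocks: 8 were lower in block 1 and 5 in block 2. The share of measured genes that were lower was not counted by block or within the endothelial cells. The median log2 ratio of all measured genes was 0.01 in block 1 and 0.02 in block 2. No gene of the 9 passed 2-fold in either direction, which 0.888% of measured genes did downward and 1.16% upward, and none was lower in 6 of 6 runs, which 1.97% were. For 4 genes (Igfbp2, Igfbp7, Igf1 and Insr) the ratio was below 0 in block 1 and above 0 in block 2, as for 24.2% of measured genes.

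**Figure D5:**
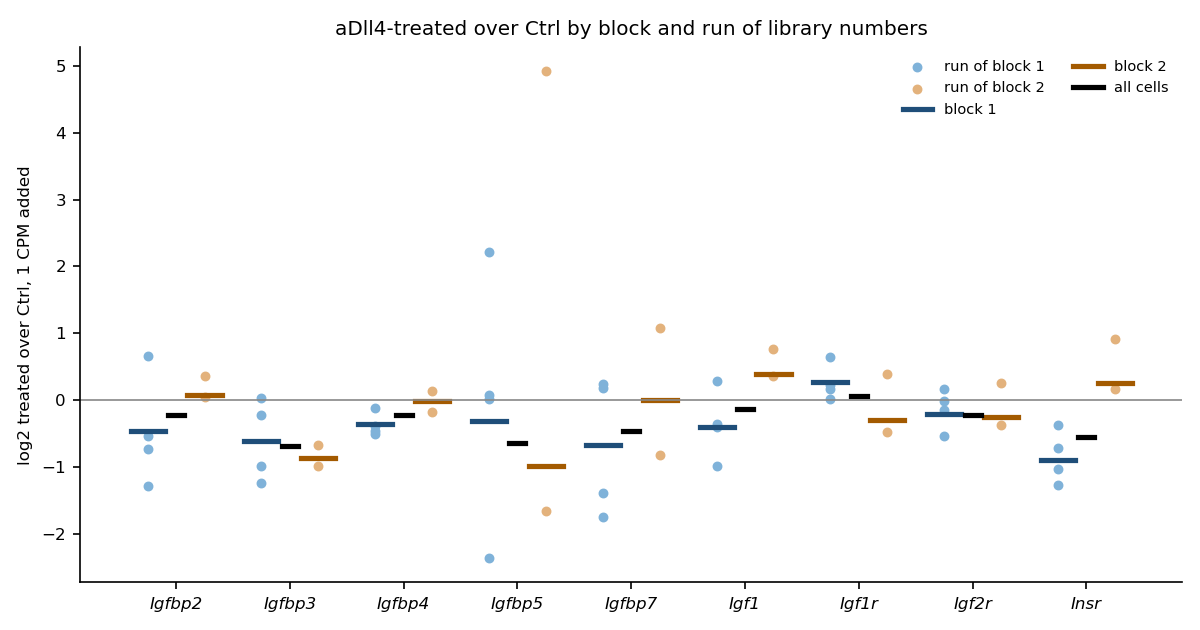
Log2 ratio of aDll4-treated over Ctrl summed levels, with 1 CPM added, for the 9 genes, over all cells (black bars), by block of library numbers (coloured bars) and by run (points). Igfbp3 is below 0 in both blocks, Insr is below 0 in the 4 runs of block 1 and above 0 in the 2 runs of block 2, and the runs of Igfbp5 span from -2.36 to 4.92.

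Insr differed most between the blocks among the receptors. In block 1 Ctrl cells stood at 81.5 and treated cells at 43.4 CPM (log2 ratio -0.89), and in block 2 at 49.05 and 58.8 CPM (0.26). By run, Ctrl levels were 116.8, 97.4, 61.2, 52.7, 57.9 and 27.1 CPM and treated levels 47.96, 47.2, 36.7, 40.3, 65.03 and 52.2 CPM. Treated cells were lower in each of the 4 runs of block 1 and higher in each of the 2 runs of block 2. In block 1 the difference was present in clusters 1, 2 and 3 (-0.89, -0.70 and -0.66), and in block 2 the clusters had -0.40, 0.87 and 0.68.

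The other receptors differed less between treatments. For Igf1r the Ctrl level was 37.9 and the treated level 39.8 CPM, and its blocks had log2 ratios of 0.28 and -0.30. Igf2r was at 145.7 and 124.06 CPM, with -0.20 and -0.25 in the blocks and lower values in 4 of 6 runs. Within the endothelium the Igf2r log2 ratio was -0.08 (0.01 for block 1 and -0.30 for block 2). Igf1, the ligand, was at 104.09 and 95.1 CPM, and its ratio was -0.40 in block 1 and 0.40 in block 2.

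For Igfbp4 the Ctrl level was 1109 and the treated level 946 CPM. It was lower in 5 of 6 runs, and its blocks had log2 ratios of -0.36 and -0.01. Igfbp2, at 94.5 CPM for Ctrl, had 80.5 CPM for treated, with -0.47 and 0.07 in the blocks. Its runs lay on both sides of 0, 3 lower and 3 higher. Igfbp7, at 29.2 and 20.9 CPM, had -0.67 in block 1 and 0.00 in block 2, with runs from -1.76 to 1.08. Igfbp5, with a Ctrl level of 26.8 and a treated level of 16.9 CPM (log2 ratio -0.63), rested on a single cell that gave 58.1% of the Ctrl reads. Without the highest cell of each treatment its log2 ratio was 0.18, the other direction.

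Other genes of the IGF and insulin pathway were followed in a list of 54, of which 44 were measured. In treated cells 23 were higher and 21 lower, with a median log2 ratio of 0.03, where 47.8% of all measured genes were lower. None passed 2-fold, which 0.888% of measured genes did downward and 1.16% upward. Pik3r1, the regulatory subunit of PI3 kinase, was the 1 gene higher by 0.5 or more in both blocks, as were 2.19% of measured genes. Its Ctrl level was 41.5 and its treated level 60.003 CPM, with log2 ratios of 0.52 and 0.54 in the blocks, and it was lower in 0 of 6 runs. By cluster it was highest in clusters 1 and 2 (64.2 and 57.4 CPM).

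The 1 pathway gene lower in both blocks by this size, in a background of 2.36%, was Igfbp1, with a Ctrl level of 2.39 and a treated level of 1.14 CPM (log2 ratios -0.60 and -0.80). Igfbp1 lies beside Igfbp3, at chr11:7197782-7202546 on the plus strand. It had reads in 28 of the 483 cells, and its runs were lower in 4 of 6. Igf2, the other IGF ligand, had a Ctrl level of 1103 and a treated level of 914 CPM, with -0.35 and -0.10 in the blocks. Of the genes measured, proteases and their inhibitors had 2 higher and 2 lower, adaptors 4 and 3, and kinases and phosphatases 10 and 9. Effectors such as the FOXO factors had 4 and 3, and genes of receptor processing and degradation 3 and 2. Among all measured genes 47.8% were lower.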

How the data were processed

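Whole-number read counts per gene and cell, not normalised, were deposited by the authors. Per the labels' protocols, cells were processed by Smart-seq2, with Nextera XT libraries run on an Illumina HiSeq instrument. GSNAP 2015-09-29, HTSeq 0.6.0 and mm10 are named in the submitters' processing notes. The sources used here do not give an annotation release, counting settings or cell filters. Symbols, positions and exon lengths came from GENCODE M21, which named 45229 of 46078 identifiers.

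All 483 cells were used, no filter on cells was added, and doublets were not called. Counts were summed over cells and divided by the summed gene total (CPM), with exact Poisson 95% intervals. Ratios of treated over Ctrl are log2 with 1 CPM added, which understates differences of low genes. Spearman correlations used CPM per cell. Thinning drew 300000 reads per cell and left out 17 Ctrl and 16 treated cells with fewer. Cells were called by sex from at least 10 reads of Xist or of Y-linked genes. Exact tests and models were not run: the labels assign no cell to an embryo, so each treatment was counted as 1 sample, although both sexes in each treatment show more than 1 embryo. Summing and correlation were tested on simulated data. Named were the 9 genes, Dll4, pathway genes past 0.5 in both blocks, and the genes most like each member (10 for Igfbp3, 3 for the others, some left out here). The genes, lists and tests were chosen with earlier results of these data known. Alternatives changed the scaling, the added CPM, the cells, blocks and runs. Python 3.11.15, numpy 2.4.6, pandas 2.3.3, scipy 1.17.1, matplotlib 3.10.9, R 4.3.3 and edgeR 4.0.16 (TMM scaling only) were used.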

Additional observations from a re-analysis of the deposited data

Results flagged for a closer look

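The difference in Insr between treated and Ctrl cells pointed in opposite directions in the 2 blocks of library numbers, at -0.89 in block 1 against 0.26 in block 2 as log2 ratios. Each of the 4 runs of block 1 was lower in treated cells (-0.38 to -1.27) and each of the 2 runs of block 2 was higher (0.17 and 0.92). The difference between the blocks was not tested, since no label names separate embryos or cultures. Of treated cells in block 1, 0% had Xist reads and 89.3% had Y-linked reads, and in block 2 the shares were 92.4% and 0%. Among cells with Y-linked reads in block 1 the ratio was -1.13, and among cells with Xist reads in block 2 it was 0.18.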

How the results depend on the processing

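No paired analysis was possible because the labels assign no cell to an embryo, although each treatment holds cells of both sexes, and their library numbers pair no samples. The count of 8 IGF genes lower in treated cells was 5 in block 2 alone and 4 among cells with Xist reads in block 2, and 7 to 9 when a run was left out. None passed 2-fold over all cells, but 1 did by the mean of log2(CPM + 1) over cells (Igfbp3, -1.12). Among cells with Y-linked reads in block 1, 2 did (Igfbp5, higher at 1.12, and Insr, lower at -1.13). Among cells with Xist reads in block 2, 3 did (Igfbp3, lower at -1.41, and Igfbp5 and Igfbp7, higher at 3.32 and 2.28). The shares of all measured genes that were lower or past 2-fold were not counted in these settings. The 1 gene past 0.5 in both blocks was Igfbp3, lower, except within clusters 1 to 3. There Igfbp3 had -0.48 in block 1 and the gene was Igfbp5, higher (0.63 and 2.05). Few of those cells had reads of Igfbp5, and the share of measured genes was not counted there. The correlation of Igfbp3 with Dll4 (0.69) was 0.57 in cluster 1, 0.094 in cluster 3 and 0.51 in block 2, and 0.65 to 0.73 when a run was left out. In block 1 alone 3 of the 9 genes, not 5, were highest in an endothelial cluster. Of these values and the pathway count, 67 stayed close to the main value and 9 moved. The cause of these changes was not tested. TMM and median-ratio scaling moved the Igfbp3 log2 ratio only to -0.70 and -0.71. Reads of Igfbp5 and Igfbp7 lay in 15.73% and 26.92% of cells, and after thinning in 9.91% and 24.8% of Ctrl cells, against 15.06% and 27.6% before.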
